A study of Mus musculus with 4 samples.

Results

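Transcripts of 6 genes were followed across the cell types of the mouse hypothalamus: Fabp7, Mfge8, Ptn, Ninj2, Chchd10 and Nkx6-2, 6 of the 32285 genes counted. They were chosen by their measured difference between TRα1+m and wild-type libraries, which had the same direction within each repeat in several glial types, so that difference is described here without a test. All 6 were found in the count tables, by symbol and by Ensembl identifier. Their UMIs (unique molecular identifiers, counts of captured transcripts) were summed per library over oligodendrocytes, oligodendrocyte progenitor cells (OPCs), the astrocyte and tanycyte sub-clusters of the astrocyte cluster, microglia/macrophages and the neuronal cluster Neurons_1.

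The data were single-nucleus RNA sequencing of the hypothalamus of adult male mice bred on a C57/BL6NCr background. Mutant animals (TRα1+m) were heterozygous for the R384C exchange in the thyroid hormone receptor TRα1, and controls were wild type. There were 2 experimental repeats, each with 1 library per genotype, and nuclei of 3 mice were pooled in each library, so n = 2 libraries per genotype throughout. The mice are a mutant line in which the exchange is not limited to a cell type, and a pool gives no value for single mice.

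TRα1 is a nuclear receptor that binds thyroid hormone and regulates genes through short DNA elements built from AGGTCA repeats; without hormone it represses many of its targets. The R384C exchange lowers its affinity for the hormone, and glia, oligodendrocytes above all, are known to need thyroid hormone to mature. The 6 genes have different roles. Fabp7, brain lipid binding protein, carries fatty acids in radial glia and astrocytes. Mfge8 is a secreted protein that bridges phosphatidylserine on dying cells to integrins of phagocytes. Ptn, pleiotrophin, is a secreted growth factor that binds heparan sulfate and the receptor phosphatase Ptprz1. Ninj2 is a small adhesion protein of the cell surface. Chchd10 is a protein of the mitochondrial intermembrane space, and Nkx6-2 is a homeodomain transcription factor of the ventral neural tube and of oligodendrocytes.

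The genes lie on 3 chromosomes (GRCm38, strand in brackets): Fabp7 at chr10:57784881-57788450 (+), Chchd10 at chr10:75933130-75937747 (+), Mfge8 at chr7:79133768-79149060 (-), Nkx6-2 at chr7:139579376-139582797 (-), Ptn at chr6:36714929-36810220 (-) and Ninj2 at chr6:120093350-120200339 (+). All are protein coding. On the opposite strand, Nkx6-2 overlaps the annotation of Inpp5a and Chchd10 overlaps Mmp11 and Gm867. Whether the counting used strand is not given in the sources used here, so reads of these pairs may be split wrongly.

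The promoter sequences are shown for 3 members because they hold, or lack, the AGGTCA core bound by the receptor. The 250 bases of RefSeq sequence upstream of each start (GRCm38.p6) were searched on both strands, and the bases shown are those upstream of both the RefSeq and the GENCODE start. Capitals mark the match, here read from the opposite strand. Fabp7 (chr10:57784673-57784880, + strand) holds 1 match and Chchd10 (chr10:75932880-75933129, + strand) holds 1, while Ninj2 (chr6:120093130-120093349, + strand) holds none.
Fabp7: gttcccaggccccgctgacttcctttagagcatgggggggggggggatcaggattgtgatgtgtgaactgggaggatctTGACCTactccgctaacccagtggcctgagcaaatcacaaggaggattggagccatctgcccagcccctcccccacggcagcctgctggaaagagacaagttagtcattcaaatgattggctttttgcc
Chchd10: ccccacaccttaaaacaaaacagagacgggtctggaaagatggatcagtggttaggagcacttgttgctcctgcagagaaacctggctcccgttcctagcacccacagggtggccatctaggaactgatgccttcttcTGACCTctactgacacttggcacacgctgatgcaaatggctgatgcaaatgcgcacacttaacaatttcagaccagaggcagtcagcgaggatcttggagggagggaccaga
Ninj2: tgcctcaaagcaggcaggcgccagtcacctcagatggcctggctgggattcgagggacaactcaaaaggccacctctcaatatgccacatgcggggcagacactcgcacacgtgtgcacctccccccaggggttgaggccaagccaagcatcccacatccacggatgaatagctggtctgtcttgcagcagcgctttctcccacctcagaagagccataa
The last base of the match lies 166 bases before the RefSeq start of Fabp7 and 107 before that of Chchd10. No match lay in the windows of Mfge8, Ptn, Ninj2 and Nkx6-2. AGGTCA occurred in 14% of the 32851 RefSeq windows of 250 bases, so 2 of 6 is read only as a description. A direct pair of them with 4 bases between, an arrangement these receptors are known to bind, was found in 5 windows of all genes (0.0152%) and in no member's. CCAAT, present in 33.8% of windows, was found 2 times each in Fabp7 and Nkx6-2 and 1 time in Ptn, and TATAAA (12.4% of windows) in none.

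Median depth per nucleus was higher in repeat 2 than in repeat 1, and higher in wild type than in TRα1+m within each repeat. Kept nuclei numbered 11976 to 16435 and held 47260127 to 59112785 UMIs per library, and library medians of UMIs per nucleus were 2904 and 3037.5 in repeat 1 and 3381.5 and 4018 in repeat 2. The smallest sums, in tanycytes and microglia/macrophages, came to 591393 UMIs or more, so low genes rest there on few counts. Annotated nuclei of different libraries shared 44 to 64 barcodes per pair of libraries. In each of the 6 groups the summed markers of its own name were higher than those of every other type in all 4 libraries, with 3234 to 3509 CPM for the neuronal markers in Neurons_1. In the glial groups the neuronal markers stood at 488 to 1033 CPM. CPM are UMIs per 1000000 UMIs of the library's sum in a cell group, scaled by TMM factors, and differences are log2 CPM of TRα1+m minus wild type with a prior count of 2, and the mean of both repeats is given with the SD over the repeats (n = 2).

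Of the 36 combinations of a gene and a cell group, 35 had the same direction in both repeats. Over all genes tested, 57.4% had the same direction in oligodendrocytes, 53% in OPCs, 54.5% in astrocytes, 52.9% in tanycytes, 50.5% in microglia/macrophages and 55.2% in Neurons_1. Fabp7 and Mfge8 were higher in TRα1+m in all 6 groups, Ptn in 5, and Ninj2, Chchd10 and Nkx6-2 were lower in all 6. The exception was Ptn in Neurons_1. In oligodendrocytes both TRα1+m libraries lay outside the range of both wild-type libraries for 4 of the 6 genes, against 31.8% of all genes tested there. In OPCs this held for 5 of 6 (all genes 26.8%), in astrocytes for 5 (26%), in tanycytes for 5 (26.3%), in microglia/macrophages for 5 (27.3%) and in Neurons_1 for 3 (20.9%). These counts follow from how the genes were chosen. By direction, the share of all genes with both TRα1+m libraries above both wild-type libraries was 15.9% in oligodendrocytes, 13.4% in OPCs, 13.3% in astrocytes, 12.6% in tanycytes, 14.1% in microglia/macrophages and 10.6% in Neurons_1. The share with both below was 15.9%, 13.5%, 12.8%, 13.7%, 13.2% and 10.3% in the same order. Of 9232 genes tested in all 6 groups, 45 (0.487%) were higher in TRα1+m in both repeats in every group, Fabp7 and Mfge8 among them, and 146 (1.58%) were lower, Chchd10 and Nkx6-2 among them. Ninj2 passed the filter on low counts in 4 groups, and not in tanycytes and microglia/macrophages. The other 5 genes passed it in all 6. In the whole astrocyte cluster, sub-clusters together, 4 of 6 did not overlap (24.6% of all genes, 12.6% above and 12% below) and all 6 had 1 direction in both repeats (53.9% of all genes).

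**Figure D1:**
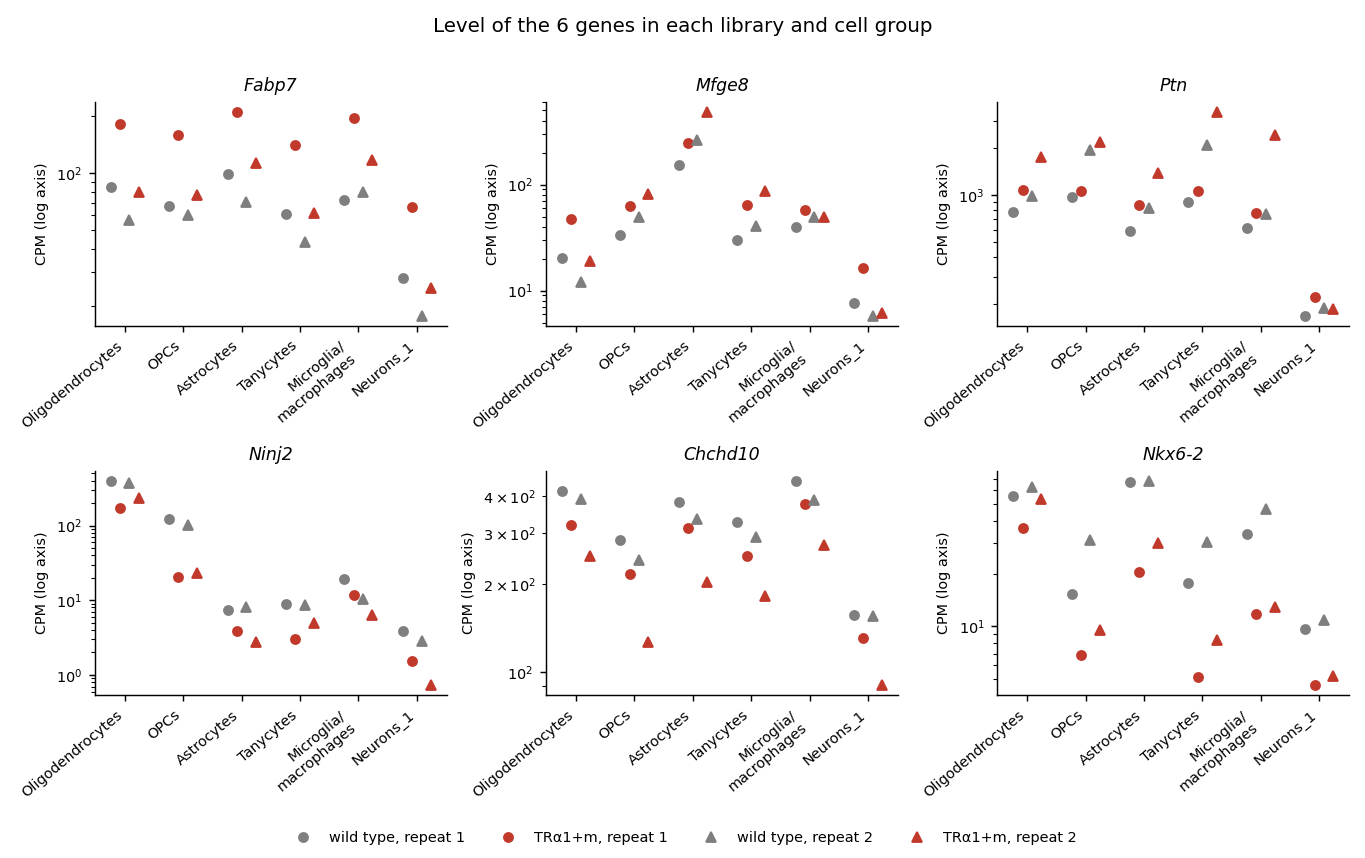
CPM (log axis) of each gene in each of the 4 libraries, by cell group: grey, wild type; red, TRα1+m; circles, repeat 1; triangles, repeat 2. Ninj2 was highest in oligodendrocytes (172 to 394 CPM) and next in OPCs (20.6 to 124 CPM), and Fabp7 in microglia/macrophages (72 to 197 CPM) overlapped with astrocytes (70.4 to 212 CPM).

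Fabp7, the fatty acid carrier, was higher in TRα1+m in every cell group, and the difference was larger in repeat 1 than in repeat 2 in all 6. In astrocytes it stood at 98.9 CPM in wild type and 212 in TRα1+m in repeat 1, and at 70.4 and 114 in repeat 2. In oligodendrocytes the values were 84.6 and 182 CPM in repeat 1, and 56.5 and 79.9 in repeat 2. OPCs held 67 and 160 CPM in repeat 1, and 60.4 and 77 in repeat 2. The TRα1+m library of repeat 1 was thus the highest of the 4 in each of these groups, and in oligodendrocytes the TRα1+m library of repeat 2 lay below the wild type of repeat 1. Tanycytes gave 60.9 and 141 CPM in repeat 1, and 43.6 and 61.7 in repeat 2. Microglia/macrophages gave 72 and 197 CPM in repeat 1, and 80.2 and 117 in repeat 2. Neurons_1 was lowest, with 28.2 and 66.1 CPM in repeat 1, and 17.7 and 24.7 in repeat 2. Within repeat 1 the log2 difference ran from 1.09 to 1.42 over the 6 groups, and within repeat 2 from 0.34 to 0.69. The means of both repeats were close to each other, from 0.79 in OPCs (SD 0.63) to 0.97 in microglia/macrophages (SD 0.62). Without the TRα1+m library of repeat 1 the difference was 0.21 in oligodendrocytes, 0.27 in OPCs, 0.45 in astrocytes, 0.25 in tanycytes, 0.61 in microglia/macrophages and 0.15 in Neurons_1, and without that of repeat 2 it was 1.31 to 1.56. With a library left out, here and below, the mean no longer pairs the repeats and also holds the difference between them. In microglia/macrophages the mean difference of all libraries was 0.42 without nuclei that carry 2 or more marker genes of another cell class. That filter dropped 53.8 to 69.8% of microglia/macrophages per library, 70.9 to 79.4% of OPCs and 41.5 to 62.8% of oligodendrocytes. It dropped 31.7 to 47.4% of astrocytes, 37.2 to 53.7% of tanycytes and 36.3 to 52.1% of Neurons_1. Marker genes were counted without thinning, so the filter can drop deeper nuclei more often.

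The levels of Fabp7 in the glial groups overlapped over libraries. Its mean over the 4 libraries was 124 ± 61.3 CPM in astrocytes, 117 ± 57 in microglia/macrophages, 100.8 ± 55.6 in oligodendrocytes, 91.1 ± 46.4 in OPCs, 76.9 ± 43.7 in tanycytes and 34.2 ± 21.7 in Neurons_1 (SD, n = 4). Neighbours in this order overlapped in their ranges, but Neurons_1 was lower than tanycytes in each library. In oligodendrocytes Fabp7 reached 70.1 to 86.1% of its astrocyte level in the same library, while the 5 astrocyte markers Agt, Aqp4, Slc1a2, Slc1a3 and Gja1 together reached 6.12 to 16.1%. In microglia/macrophages it reached 72.8 to 114% of the astrocyte level and the astrocyte markers 9.05 to 20.1%. None of the 5 markers was at 0 in any of these sums. In Neurons_1 the summed astrocyte markers were 325 and 415 CPM in repeat 1 and 264 and 186 in repeat 2 (wild type first), so they were higher in TRα1+m in repeat 1 and lower in repeat 2, where Fabp7 was higher in both. The part of RNA from other cells in the Fabp7 difference was not tested.

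Mfge8, the bridging protein for dying cells, was highest in astrocytes. There it stood at 154 CPM in wild type and 245 in TRα1+m in repeat 1, and at 264 and 486 in repeat 2. Each TRα1+m library was above the wild type of its own repeat, but the TRα1+m library of repeat 1 was below the wild type of repeat 2. In tanycytes the values were 29.9 and 64.5 CPM in repeat 1, and 40.8 and 86.7 in repeat 2. OPCs held 33.1 and 63.1 CPM in repeat 1, and 49.2 and 80.7 in repeat 2. Both TRα1+m libraries were above both wild-type libraries in these 2 groups, and the difference in tanycytes was the same in the repeats to 2 decimals (log2 1.05 in each). Behind the tanycyte values stood 27 and 63 UMIs in repeat 1, and 43 and 52 in repeat 2, too few to fix a difference to 2 decimals. Oligodendrocytes gave 20.4 and 47.1 CPM in repeat 1, and 12 and 18.8 in repeat 2. Microglia/macrophages differed little, with 40 and 57.7 CPM in repeat 1 and 49.3 and 49.8 in repeat 2. In Neurons_1 Mfge8 was at 7.66 and 16.2 CPM in repeat 1, and at 5.79 and 6.2 in repeat 2. The mean log2 difference was 0.77 (SD 0.15) in astrocytes, 1.05 (SD 0.0041) in tanycytes, 0.80 (SD 0.14) in OPCs and 0.90 (SD 0.40) in oligodendrocytes, but only 0.26 (SD 0.34) in microglia/macrophages. In Neurons_1 it was 0.59 (SD 0.69), and -0.10 without the TRα1+m library of repeat 1 (1.28 without that of repeat 2). Leaving out a single library moved the other means too, with the difference between repeats then part of the mean. Within the repeats the astrocyte difference was 0.67 and 0.88. Without the TRα1+m library of repeat 1 Mfge8 was 1.27 in astrocytes and 0.25 in oligodendrocytes, and without that of repeat 2 it was 0.28 and 1.54. Without the wild type of repeat 1 it was 0.39 in astrocytes, 0.52 in OPCs and 0.12 in microglia/macrophages, and without the wild type of repeat 2 it was 1.16 in astrocytes, 0.54 in oligodendrocytes and 0.39 in Neurons_1.

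The astrocyte level of Mfge8, 287 ± 141 CPM (SD, n = 4), did not overlap with that of any other group, the next being OPCs with 56.5 ± 20.2. OPCs, tanycytes (55.5 ± 25.3) and microglia/macrophages (49.2 ± 7.25) overlapped. In oligodendrocytes Mfge8 was at 3.87 to 19.2% of its astrocyte level, in the range of the summed astrocyte markers there (6.12 to 16.1%), and in Neurons_1 at 1.27 to 6.61% beside 1.84 to 6.04% for the markers. It was above the markers in 2 of 4 libraries in oligodendrocytes and in 1 of 4 in Neurons_1. In OPCs (16.6 to 25.7%) and microglia/macrophages (10.2 to 25.9%) it was above them in all 4. In tanycytes it was at 15.5 to 26.3% beside 25 to 35.3% for the markers, and above them in 0 of 4. After removal of nuclei with 2 or more marker genes of another cell class, the difference was 0.47 in OPCs, 1.35 in tanycytes, 0.74 in astrocytes and 0.70 in microglia/macrophages.

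Ptn, pleiotrophin, was higher in TRα1+m within both repeats in the 5 glial groups. In oligodendrocytes it stood at 778 CPM in wild type and 1082 in TRα1+m in repeat 1, and at 984 and 1747 in repeat 2. In astrocytes the values were 586 and 867 CPM in repeat 1, and 833 and 1385 in repeat 2. Microglia/macrophages held 614 and 766 CPM in repeat 1, and 759 and 2438 in repeat 2. In these 3 groups both TRα1+m libraries were above both wild-type libraries, although in microglia/macrophages the closest pair, 766 and 759 CPM, overlapped when CPM were scaled by the total alone (762 and 773). OPCs gave 971 and 1061 CPM in repeat 1, and 1940 and 2208 in repeat 2. Tanycytes gave 911 and 1063 CPM in repeat 1, and 2111 and 3429 in repeat 2. Here the repeats were farther apart than the genotypes, and the wild type of repeat 2 exceeded the TRα1+m library of repeat 1. In Neurons_1 Ptn was at 169 and 223 CPM in repeat 1, and at 190 and 187 in repeat 2, with no common direction. The mean log2 difference was 0.65 in oligodendrocytes (SD 0.25) and 0.65 in astrocytes (SD 0.12), 0.46 in tanycytes (SD 0.34), 0.16 in OPCs (SD 0.04), 1.00 in microglia/macrophages (SD 0.96) and 0.19 in Neurons_1 (SD 0.30). Because of the gap between repeats, leaving out the wild type of repeat 1 turned the OPC mean to -0.34 and the tanycyte mean to -0.14, and leaving out the TRα1+m library of repeat 2 turned them to -0.37 and -0.38. In oligodendrocytes and astrocytes the mean was 0.31 in each without the TRα1+m library of repeat 2, and 1.00 and 0.99 without that of repeat 1.

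The value of Ptn in microglia/macrophages of the TRα1+m library of repeat 2 came with more UMIs per nucleus that carried it. With every nucleus thinned to 900 UMIs, 32.7% of the nuclei of that library carried Ptn (95% exact binomial interval 28 to 37.5), against 37.9% (33.6 to 42.3) in the TRα1+m library of repeat 1 and 29.9% and 24.8% in wild type. A nucleus with Ptn held 5.71 UMIs of it on average, against 1.73 in the other TRα1+m library, and 1.65 and 2.44 in wild type. Without nuclei that carry markers of another class the mean difference there was 0.32 (0.25 in OPCs), and without that library 0.17. Such nuclei were 68.4% and 69.8% of the group in repeat 1, and 69.2% and 53.8% in repeat 2, wild type first. The summed tanycyte markers Rax, Dio2, Crym, Col23a1 and Nnat were higher in TRα1+m in both repeats in every group but tanycytes. In microglia/macrophages they were 654 and 828 CPM in repeat 1 and 671 and 940 in repeat 2, with Crym at 0 in the wild type and Dio2 at 0 in TRα1+m of repeat 1. In tanycytes themselves they were 5353 and 4835 CPM in repeat 1, and 6862 and 9180 in repeat 2. The summed vascular markers Cldn5, Flt1, Ly6c1, Rgs5, Slc6a13 and Dcn in microglia/macrophages were 385 and 254 CPM in repeat 1, and 620 and 694 in repeat 2. In oligodendrocytes they were 17.2 to 56.1 CPM and in tanycytes 109 to 155. The part of tanycyte or vascular transcripts in the Ptn values, within or between repeats, was not tested. By level, tanycytes (1879 ± 1163 CPM), OPCs (1545 ± 622), oligodendrocytes (1148 ± 419), microglia/macrophages (1144 ± 865) and astrocytes (918 ± 336) overlapped over libraries, and all lay above Neurons_1 (192 ± 22.3; SD, n = 4).

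**Figure D2:**
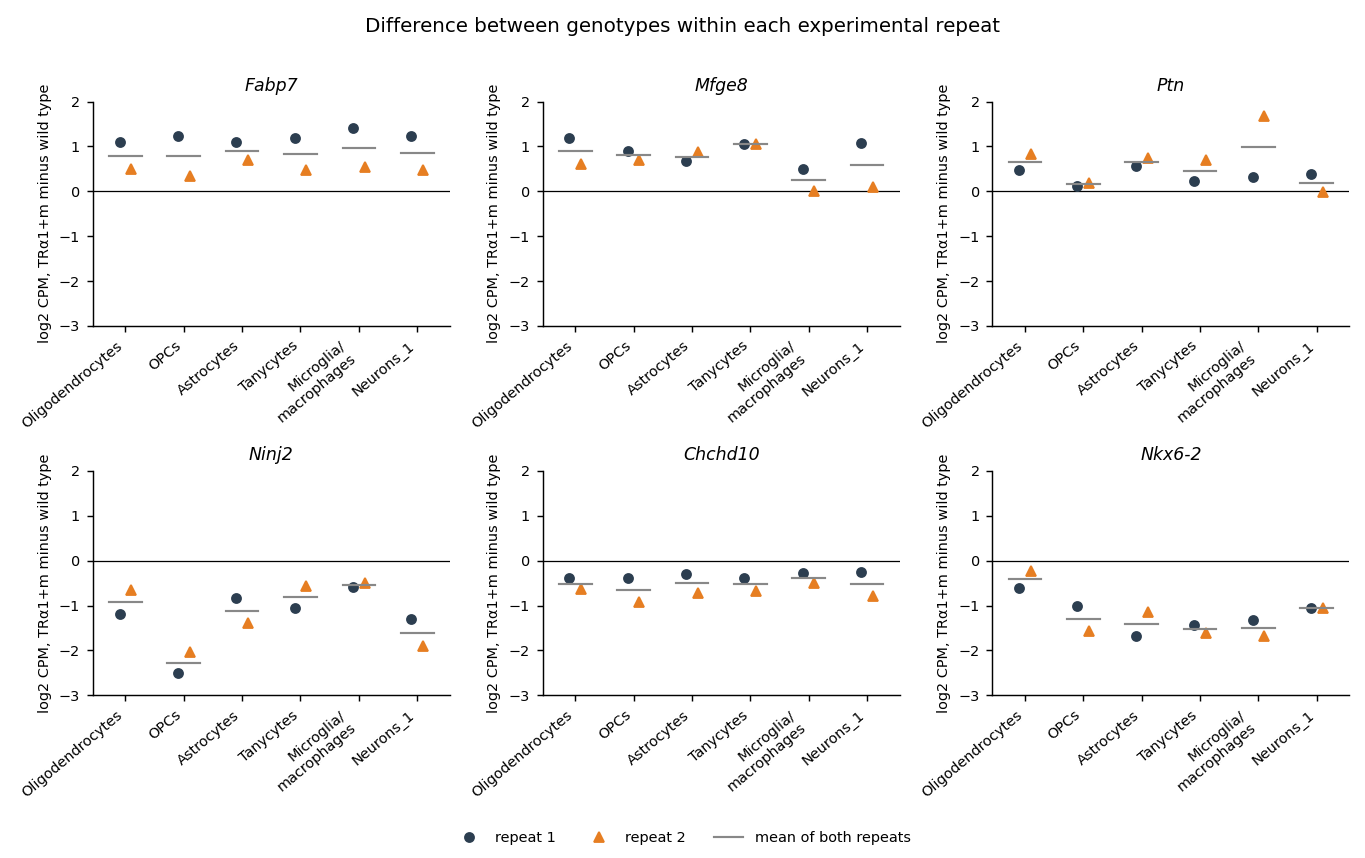
Difference in log2 CPM, TRα1+m minus wild type, within repeat 1 (dark circles) and repeat 2 (orange triangles) for each gene and cell group; grey bars are the mean of both. Fabp7 was above 0 everywhere with repeat 1 farther out (1.09 to 1.42 against 0.34 to 0.69), Chchd10 was below 0 everywhere with repeat 2 farther out (-0.93 to -0.50 against -0.39 to -0.26), and Ninj2 in OPCs was lowest (-2.51 and -2.04).

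Ninj2, the adhesion protein, had the widest mean gap between genotypes of the 6 genes in OPCs, while Nkx6-2 had a wider one in astrocytes, tanycytes and microglia/macrophages. OPCs held 124 CPM in wild type and 20.6 in TRα1+m in repeat 1, and 101 and 23.5 in repeat 2. Behind these values stood 161 and 33 UMIs in repeat 1, and 135 and 32 in repeat 2. The TRα1+m libraries stood at 0.176 and 0.244 of the wild-type level of their repeat. In oligodendrocytes, where Ninj2 was highest, it stood at 394 CPM in wild type and 172 in TRα1+m in repeat 1, and at 366 and 231 in repeat 2. The mean log2 difference was -2.27 (SD 0.34) in OPCs and -0.93 (SD 0.37) in oligodendrocytes. In both groups the TRα1+m libraries lay below both wild-type libraries. Without nuclei carrying markers of another class the differences were -2.10 and -0.93.

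Elsewhere Ninj2 was low. Astrocytes gave 7.41 and 3.93 CPM in repeat 1, and 8.12 and 2.79 in repeat 2. Neurons_1 gave 3.86 and 1.53 CPM in repeat 1, and 2.84 and 0.731 in repeat 2. Tanycytes held 8 and 3 UMIs in repeat 1 and 9 and 3 in repeat 2, and microglia/macrophages 12 and 9 and then 9 and 4, too few for a fold change. The direction in these 4 groups was that of oligodendrocytes. Relative to oligodendrocytes of the same library, Ninj2 stood at 1.21 to 2.29% in astrocytes and 0.316 to 0.982% in Neurons_1, lower than the 5 summed oligodendrocyte markers Mag, Mobp, Mog, Mbp and Cldn11 (6.74 to 16.4% and 2.63 to 7.41%). In OPCs of wild type it stood at 31.5% and 27.5%, above the markers (17.1% and 8.91%), and in OPCs of TRα1+m at 12% and 10.2% beside 17.4% and 8.73%. In astrocytes the difference was -0.61 without nuclei carrying markers of another class. The summed markers in OPCs were 826 and 793 CPM in repeat 1, and 599 and 710.1 in repeat 2, none of the 5 being at 0.

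The share of nuclei with a Ninj2 UMI was lower in TRα1+m too. At 900 UMIs per nucleus, 26% (95% exact binomial interval 23.9 to 28.2) and 27.4% (25 to 29.8) of wild-type oligodendrocytes carried it, against 12.3% (10.8 to 13.9) and 16.1% (14.3 to 18.2) in TRα1+m. Without thinning the shares were 38.6% and 44.5% in wild type and 19.2% and 27.4% in TRα1+m. Among OPCs, 7.16% and 9.24% of wild-type nuclei and 1.18% and 1.46% of TRα1+m nuclei carried a UMI after thinning (20.7% and 23.5%, and 4.12% and 4.39%, before). Neurons_1 gave 0.0733 to 0.397% after thinning and 0.352 to 1.27% before, with an uneven spread over its sub-clusters. Library medians of depth were 1493 to 1811.5 UMIs in oligodendrocytes, 2221 to 2984 in OPCs and 3797 to 5227 in Neurons_1. After thinning, 8 and 7 TRα1+m OPC nuclei carried it. Intervals cover counting error only. Within Neurons_1, 33.3% and 50% of wild-type nuclei of the small sub-cluster 11 carried Ninj2 before thinning, against 0.755% and 0.584% of the GABA sub-cluster. Sub-cluster 11 held 54 of the 158 Ninj2 UMIs in wild type and 40 of 69 in TRα1+m in repeat 1, and 36 of 137 and 0 of 27 in repeat 2, where it had 44 and 4 nuclei. In sub-cluster 11, 93.2 to 100% of nuclei per library carried 2 or more marker genes of another class, against 33.2 to 47.5% of the GABA sub-cluster. The sub-cluster CART Neurons_2 (2 to 19 nuclei, 100% with such markers) held 7 and 1 Ninj2 UMIs in repeat 1, and 21 and 6 in repeat 2. The GABA sub-cluster stood at 1.82 and 0.533 CPM in repeat 1, and at 1.06 and 0.481 in repeat 2.

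Chchd10, the mitochondrial protein, was lower in TRα1+m in every group by a similar amount. Oligodendrocytes held 417 CPM in wild type and 318 in TRα1+m in repeat 1, and 390 and 251 in repeat 2. OPCs held 284 and 217 CPM in repeat 1, and 243 and 127 in repeat 2. Astrocytes held 383 and 311 CPM in repeat 1, and 334 and 204 in repeat 2. In all 6 groups both TRα1+m libraries lay below both wild-type libraries, with the TRα1+m library of repeat 2 lowest. Tanycytes gave 328 and 251 CPM in repeat 1, and 290 and 182 in repeat 2. Microglia/macrophages gave 451 and 375 CPM in repeat 1, and 387 and 273 in repeat 2. Neurons_1 gave 157 and 131 CPM in repeat 1, and 156 and 90.4 in repeat 2. The mean log2 difference ran only from -0.66 (SD 0.38, OPCs) to -0.38 (SD 0.17, microglia/macrophages). The difference was larger in repeat 2 in all 6 groups, and without the TRα1+m library of repeat 2 the mean was between -0.34 and -0.15. Without that of repeat 1 it was between -1.04 and -0.61.

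Chchd10 was not restricted to a cell type. Its level was 372 ± 73.7 CPM in microglia/macrophages, 344 ± 75.1 in oligodendrocytes, 308 ± 75.6 in astrocytes, 263 ± 62.5 in tanycytes, 218 ± 66.4 in OPCs and 134 ± 31.2 in Neurons_1 (SD, n = 4), and every neighbour in this order overlapped over libraries. After thinning, 31.4 ± 1.54% of wild-type and 23.3 ± 3.59% of TRα1+m oligodendrocytes carried a UMI (SD, n = 2), and 14.9 ± 0.197% and 10.9 ± 2.45% of Neurons_1. The percentage of UMIs from mitochondrial genes was also lower in TRα1+m libraries, at 1.16% and 1.05% of all kept UMIs in repeat 1 and 1.34% and 0.937% in repeat 2, wild type first. In oligodendrocytes it was 2.31% and 1.97% in repeat 1, and 2.44% and 1.79% in repeat 2, but in astrocytes of repeat 1 it was 2.04% and 2.05% while Chchd10 was 383 and 311 CPM. Whether both share a source was not tested.

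Nkx6-2, the transcription factor, was lower in TRα1+m in every group, with mean differences of -1.42 in astrocytes and -0.42 in oligodendrocytes. Oligodendrocytes held 55.8 CPM in wild type and 36.3 in TRα1+m in repeat 1, and 62.9 and 53.6 in repeat 2. Astrocytes held 66.7 and 20.4 CPM in repeat 1, and 67.7 and 30.2 in repeat 2. Neurons_1 held 9.69 and 4.62 CPM in repeat 1, and 10.9 and 5.2 in repeat 2. The TRα1+m libraries were below both wild-type libraries in all 3 groups, in oligodendrocytes by little (53.6 and 55.8 CPM at the closest). OPCs gave 15.4 and 6.87 CPM in repeat 1, and 31.3 and 9.54 in repeat 2. Microglia/macrophages gave 33.6 and 11.8 CPM in repeat 1, and 47 and 12.8 in repeat 2. Tanycytes gave 17.7 and 5.12 CPM in repeat 1, and 30.4 and 8.34 in repeat 2, from 5 to 32 UMIs per library. The SD over repeats was 0.38 in astrocytes and 0.27 in oligodendrocytes, and the mean lay between -1.53 and -1.06 in the other 4 groups. Without nuclei carrying markers of another class it was -1.15 in astrocytes, -0.70 in OPCs and -0.07 in oligodendrocytes. Such nuclei were 48% of wild-type and 62.8% of TRα1+m oligodendrocytes in repeat 1, and 53.1% and 41.5% in repeat 2. With all nuclei, the oligodendrocyte mean was -0.14 when TRα1+m of repeat 1 was left out and -0.70 when TRα1+m of repeat 2 was. The OPC mean was -0.82 without the wild type of repeat 2. The difference between cell groups was not tested.

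In wild-type astrocytes Nkx6-2 stood at 120% and 108% of the oligodendrocyte level in the 2 libraries, and in TRα1+m at 56.1% and 56.2%. The summed oligodendrocyte markers in astrocytes were 758 and 748 CPM in repeat 1 and 544 and 548 in repeat 2, with none of the 5 at 0. At 900 UMIs, 5.77% and 6.07% of wild-type astrocytes carried a Nkx6-2 UMI and 1.64% and 2.67% of TRα1+m astrocytes (11.5% and 14%, and 3.5% and 6.05%, before thinning). Library medians of depth in astrocytes were 1662.5 to 2200 UMIs. Neurons_1 gave 1.05% in both wild-type libraries and 0.556% and 0.703% in TRα1+m (1.88 to 5.77% before thinning). Among oligodendrocytes the shares were 5.18% and 5.16% in wild type and 3.03% and 5.1% in TRα1+m, and in repeat 2 the counting intervals overlapped (4.06 to 6.45% and 4.01 to 6.37%). The shares in OPCs were 1.82 ± 0.443% in wild type and 0.953 ± 0.723% in TRα1+m, and in tanycytes 1.99 ± 0.0878% and 0.928 ± 0.314% (SD, n = 2).

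**Figure D3:**
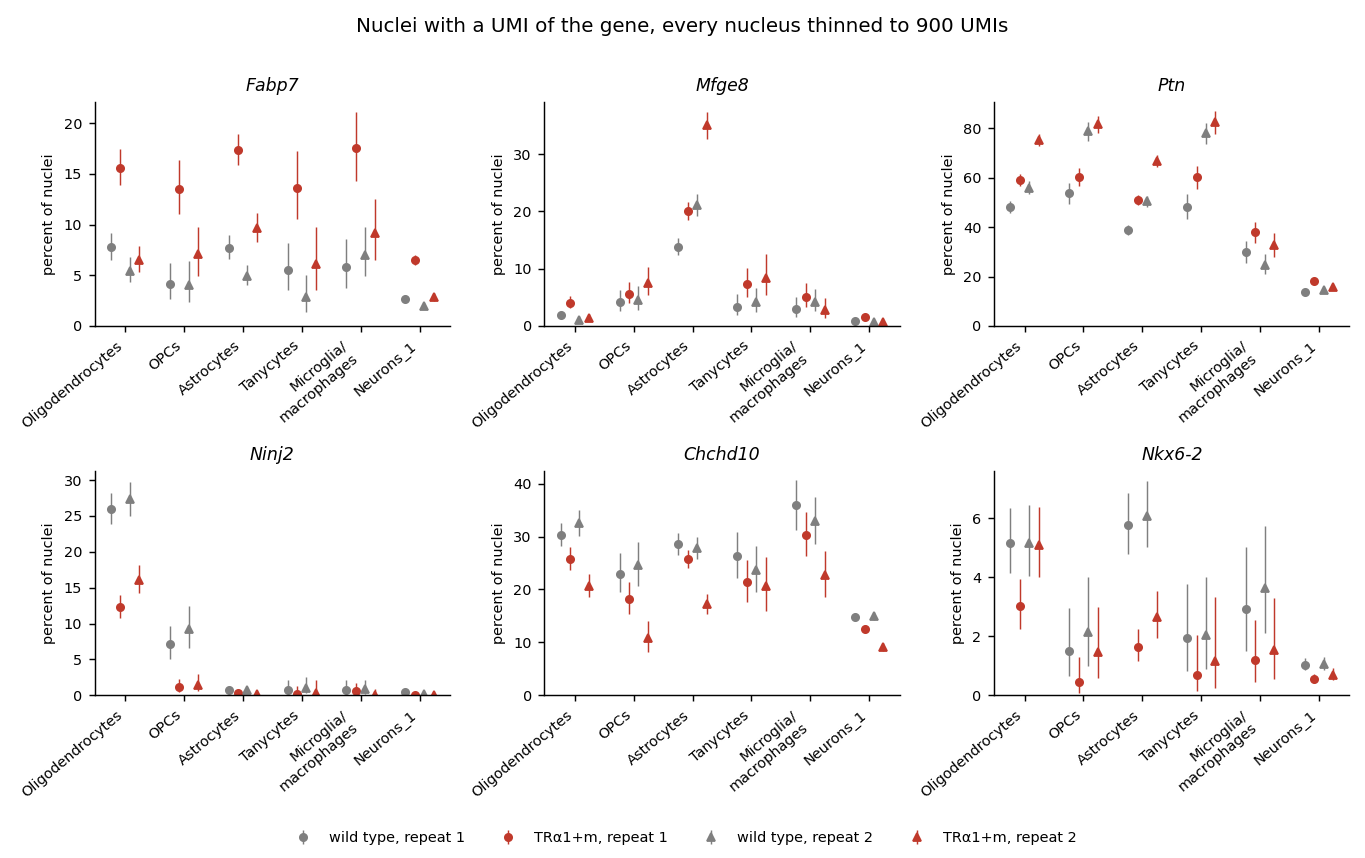
Percent of nuclei with at least 1 UMI of the gene after every nucleus was thinned to 900 UMIs, per library; error bars are 95% exact binomial intervals, symbols as in the plot of levels. Ninj2 was carried by 26% and 27.4% of wild-type and 12.3% and 16.1% of TRα1+m oligodendrocytes, and Nkx6-2 by 5.77% and 6.07% of wild-type and 1.64% and 2.67% of TRα1+m astrocytes.

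**Figure D4:**
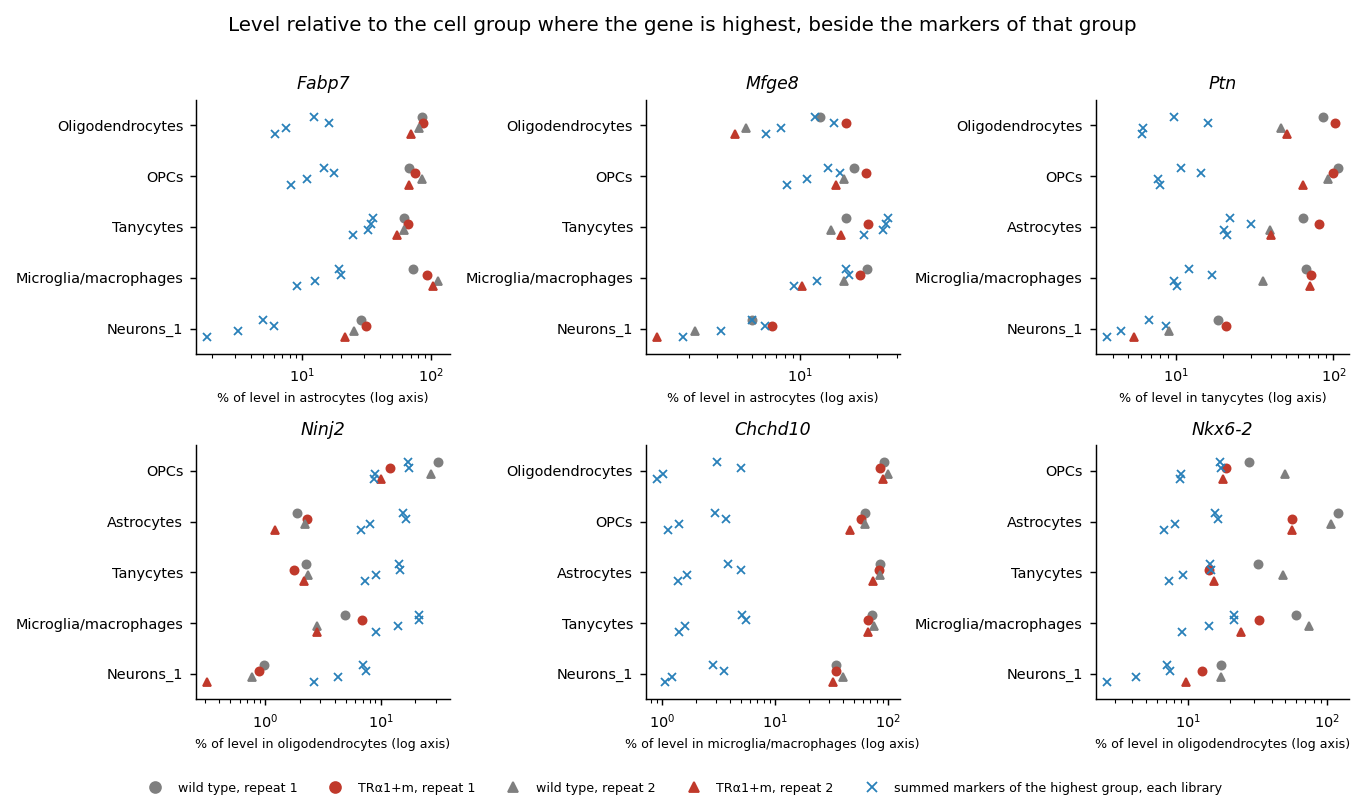
Level of each gene as a percent of its level in the cell group where it was highest, in the same library (grey and red symbols), beside the summed markers of that highest group (blue crosses); log axes. Fabp7, Ptn and Chchd10 lay above the crosses in all 4 libraries of every other group, as did Nkx6-2 except in tanycytes (3 of 4 libraries), and Ninj2 lay below them in astrocytes, tanycytes, microglia/macrophages and Neurons_1. Mfge8 lay above them in OPCs and microglia/macrophages, below them in tanycytes, and on both sides in oligodendrocytes and Neurons_1.

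The difference between the experimental repeats itself was not used to choose the genes. It was tested in edgeR, with genotype in the model and p-values adjusted over all genes of a cell group. A gene's own spread in that test is how far its genotype difference disagrees between repeats. The genes were chosen on that genotype difference, with the same direction in both repeats, so the test is not independent of the choice. Their p-values here may be too small, and the counts beside the share of all genes are a description only. Of the 34 combinations that passed the filter, 15 passed an adjusted p of 0.05. They numbered 3 of 6 in oligodendrocytes (12.4% of all genes), 3 of 6 in OPCs (11.4%), 4 of 6 in astrocytes (17.4%), 2 of 5 in tanycytes (13.8%), 1 of 5 in microglia/macrophages (6.19%) and 2 of 6 in Neurons_1 (25.2%). In the whole astrocyte cluster 20.5% of all genes passed. Fabp7 was lower in repeat 2 in 5 of 6 groups and Ptn was higher in repeat 2 in 5 of 6. Without nuclei that carry markers of another class, the difference of Ptn between repeats in microglia/macrophages was -0.28 (adjusted p 0.657 in edgeR), in place of 1.00 with all nuclei (SE 0.21, adjusted p 9.02e-05).

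In oligodendrocytes Fabp7 fell by 0.91 on the log2 scale from repeat 1 to repeat 2 (SE 0.16, adjusted p 9.91e-06 in edgeR). The drop was 0.70 in astrocytes (SE 0.13, adjusted p 2.26e-06) and 1.05 in Neurons_1 (SE 0.19, adjusted p 0.0209), and in microglia/macrophages the value of -0.36 (SE 0.23) did not pass (adjusted p 0.466). Ptn rose by 1.45 in tanycytes (SE 0.15, adjusted p 1.43e-12), by 1.03 in OPCs (SE 0.09, adjusted p 1.78e-28) and by 0.59 in astrocytes (SE 0.12, adjusted p 7.38e-06). In Neurons_1 the difference of Ptn between repeats was -0.04 (SE 0.10, adjusted p 0.811). Mfge8 went in opposite directions: it was higher in repeat 2 in astrocytes (0.88, SE 0.12, adjusted p 8.72e-11) and lower in oligodendrocytes (-1.09, SE 0.24, adjusted p 0.000426) and Neurons_1 (-0.91, SE 0.24, adjusted p 0.0405). Chchd10 was lower in repeat 2 in OPCs (-0.48, SE 0.14, adjusted p 0.0088) and astrocytes (-0.40, SE 0.12, adjusted p 0.0109).

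Ninj2 and Nkx6-2 had no call between repeats in edgeR. Over the 4 groups where Ninj2 was tested, the smallest adjusted p was 0.0715, in Neurons_1 (-0.67, SE 0.24). For Nkx6-2 it was 0.102, in OPCs (0.84, SE 0.35). DESeq2 called 8 of the 34 in place of 15, and without genotype in the model edgeR called 2. The 4 summed ependymal markers Foxj1, Tmem212, Ccdc153 and Rarres2 in Neurons_1 were at 43.9 and 42.6 CPM in repeat 1 and at 9.37 and 6.06 in repeat 2, each marker being detected in all 4 libraries. In astrocytes they were at 126 and 143 CPM in repeat 1, and at 105 and 107 in repeat 2. Their part in the differences between repeats was not tested.

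**Figure D5:**
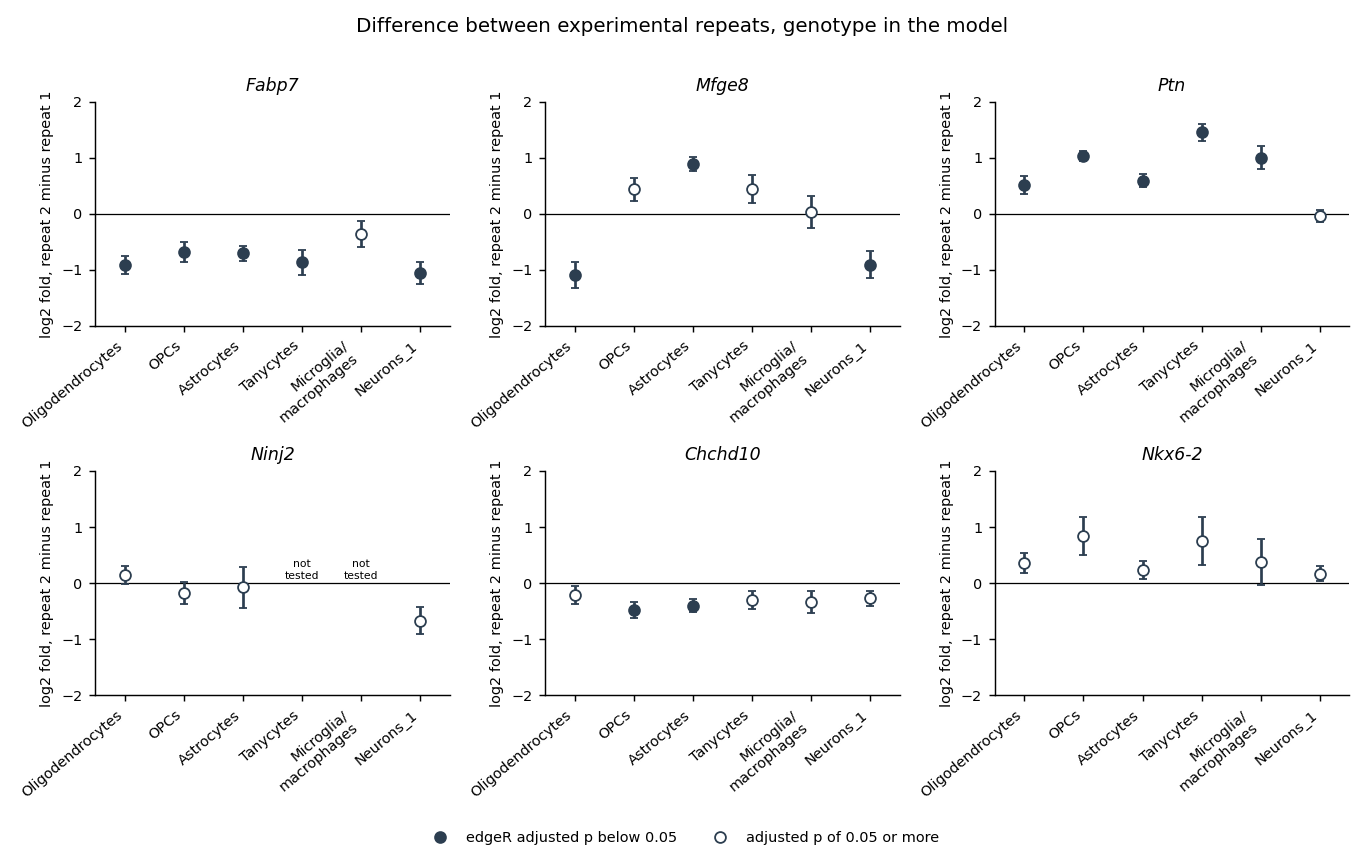
Log2 fold difference between repeat 2 and repeat 1 with its standard error, from edgeR with genotype in the model; filled symbols passed an adjusted p of 0.05. Ptn was higher in repeat 2 in 5 groups and Fabp7 lower in 5, while no value of Ninj2 or Nkx6-2 passed.

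Relatives of the 6 genes had no call between genotypes in the fit without the repeat. With the repeat as a block there was 1, Edil3 in astrocytes. Fabp3 and Fabp5, which carry fatty acids as Fabp7 does, Edil3 (a relative of Mfge8 that also binds integrins), Mdk (midkine, the relative of Ptn), Ninj1, Chchd2 and Nkx6-1 were compared between genotypes in edgeR. In the 35 combinations with enough counts 0 passed without the repeat in the model, and 0 had an unadjusted p below 0.05. The SE of that fit also holds the difference between repeats. DESeq2 called none either. In oligodendrocytes Fabp5 was at 188 CPM in wild type and 178 in TRα1+m in repeat 1, and at 205 and 158 in repeat 2 (log2 -0.23, SE 0.17). Chchd2, the nearest relative of Chchd10, had values below 0 within both repeats in all 6 groups, as Chchd10 did. Its log2 difference ran from -0.24 in Neurons_1 (SE 0.12) to -0.03 in oligodendrocytes (SE 0.17), with -0.22 in OPCs, -0.21 in tanycytes, -0.18 in microglia/macrophages and -0.17 in astrocytes. Both TRα1+m libraries lay below both wild-type libraries in astrocytes, tanycytes and Neurons_1. Mdk had values above 0 within both repeats in astrocytes (log2 0.27, SE 0.49), tanycytes (0.50, SE 0.76) and microglia/macrophages (0.39, SE 0.33). With the repeat as a block its SE was 0.13, 0.20 and 0.34 in the same order, and none passed (adjusted p 0.400, 0.408 and 0.994 in edgeR). In oligodendrocytes (-0.05), OPCs (0.02) and Neurons_1 (0.29) it had no common direction. Ninj1 ranged from -0.37 in astrocytes (SE 0.31) to 0.34 in tanycytes (SE 0.55) over the 5 groups where it was tested. Over the 6 groups Fabp5 ranged from -0.23 to 0.0012 and Fabp3 from -0.40 to 0.02. Fabp3 in oligodendrocytes was at 55.4 and 43 CPM in repeat 1, and at 53.3 and 39.3 in repeat 2 (log2 -0.40, SE 0.19). Nkx6-1 was below the filter in all 6 groups. Edil3 in astrocytes was at 77.2 and 65.5 CPM in repeat 1, and at 74.7 and 44.4 in repeat 2, and was called lower only with the repeat as a block (log2 -0.48, SE 0.14, adjusted p 0.0359 in edgeR). Its adjusted p without the block was 0.99985. Edil3 was highest in oligodendrocytes, at 3396 and 2905 CPM in repeat 1, and at 3010 and 2965 in repeat 2. The part of oligodendrocyte RNA in its astrocyte values was not tested.

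The wider pathways of the members were taken from 8 lists of 95 genes together, the relatives included. Over the 6 groups 490 combinations were tested in edgeR, of which 0 passed an adjusted p of 0.05 and 16 had an unadjusted p below 0.05. DESeq2 called 0. Blocking on the repeat, edgeR called 8, and DESeq2 with that block 0. Over all genes edgeR called 13 of 12630 in oligodendrocytes (0.103%) and 0 in the other 5 groups (0%), where 150 to 312 genes had an unadjusted p below 0.05 and DESeq2 called 0 to 2. With the block it called 548 in oligodendrocytes (4.34%), 64 in OPCs (0.569%), 245 in astrocytes (1.74%), 47 in tanycytes (0.419%), 33 in microglia/macrophages (0.316%) and 2 in Neurons_1 (0.01%), and 190 in the whole astrocyte cluster (1.28%).

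The 8 blocked calls lay in 3 groups, and their adjusted p without the block was 0.522 to 0.99998. For each, the edgeR fit with the block gave the smallest adjusted p over all alternatives, and the highest was 0.99997 or 0.99999. In oligodendrocytes the intermediate filament gene Vim (log2 0.82, SE 0.24, adjusted p 0.0309 in edgeR), the glutamate transporter Slc1a3 (0.52, SE 0.16, adjusted p 0.0326) and the oligodendrocyte factor Zfp488 (1.18, SE 0.33, adjusted p 0.0152) were higher in TRα1+m, and the integrin subunit Itgav, part of receptors for Mfge8, was lower (-0.58, SE 0.15, adjusted p 0.00941). Itgav stood at 127 and 80.4 CPM in repeat 1, and at 132 and 93.4 in repeat 2. In astrocytes the Notch target Hes5 (0.59, SE 0.13, adjusted p 0.00084) and the neuroglycan Cspg5 (0.57, SE 0.12, adjusted p 0.00078) were higher, beside the lower Edil3. In OPCs Tcf7l2, a Wnt effector of differentiating oligodendrocytes, was higher (0.53, SE 0.13, adjusted p 0.019 in edgeR), with 324 and 422 CPM in repeat 1, and 138 and 225 in repeat 2. Without the block its difference was -0.03 when the TRα1+m library of repeat 1 was left out. Slc1a3 is also an astrocyte marker, and the summed astrocyte markers in oligodendrocytes were 807 and 1108 CPM in repeat 1 and 622 and 615 in repeat 2.

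By list, the 15 genes of radial and immature glia had a median log2 difference above 0 in all 6 groups, from 0.17 in OPCs to 0.37 in tanycytes, beside medians over all genes tested of -0.00064 to 0.01. Of the genes tested, 10 of 11 in oligodendrocytes, 11 of 13 in OPCs and 10 of 12 in astrocytes had a positive value. So had 8 of 10 in tanycytes, 8 of 9 in microglia/macrophages and 11 of 15 in Neurons_1, so this was not limited to glia. None passed the test without the block. The share of positive values over all genes was not computed, and the part of RNA from other cells was not tested. The 14 genes of mitochondrial cristae and CHCHD proteins had medians from -0.10 to -0.02, with 10 of 14 below 0 in oligodendrocytes. The 17 genes of apoptotic cell recognition and engulfment had medians from -0.13 in OPCs to 0.23 in microglia/macrophages, where 14 of 16 were positive. The 18 genes of fatty acid handling ranged from -0.05 to 0.17, the 16 receptors and partners of pleiotrophin from -0.06 to 0.21 and the 14 glial lineage transcription factors from -0.06 to 0.21. The highest median of each of these lists was also that in microglia/macrophages. There 16 of 17, 10 of 13 and 6 of 8 of their tested genes were positive, in the same order. A positive value in that group was thus not particular to the engulfment genes. Of the cristae and CHCHD genes 5 of 14 were positive there. The 6 genes of membrane rupture and lytic death had 2 or 3 members tested per group.

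Across the 24 sums of 6 cell groups and 4 libraries, the genes most like each member among 8417 were named by Pearson r of log2 CPM. The sums share libraries, depth and the contrast between cell types, so these values describe the pattern only. Nearest to Fabp7 were S100b (r 0.86), Lxn (0.85) and Gstm1 (0.82), and nearest to Mfge8 were Plpp3 (0.96), F3 (0.95) and Fgfr3 (0.94). Ptn was most like Map4k4 (0.94), Cd9 (0.93) and Fkbp9 (0.89), and Ninj2 most like Ugt8a (0.95), Enpp2 (0.95) and Gm4258 (0.94). Chchd10 was nearest to Atp5g3 (0.98), Txn1 (0.98) and Nap1l5 (0.97). For Nkx6-2 the nearest were Insig1 (0.90), Thra (0.89) and Idi1 (0.86).

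The direction of the 6 genes was also followed within neurons, in 12 neuronal sub-clusters with 10 or more nuclei per library, where CPM were scaled by the total only. Chchd10 was lower in TRα1+m in both repeats in 11 of the 12, Ninj2 in 10 and Nkx6-2 in 9, for Ninj2 partly on single UMIs (1 and 0, and 1 and 0, in somatostatin neurons). Mfge8 was higher in 10, Fabp7 in 8 and Ptn in 7. The share over all genes was not computed for sub-clusters. The sub-clusters come from the same libraries and the genes were chosen on the genotype difference in them, so these counts are a description only. Nkx6-2 went the other way in the somatostatin sub-cluster, but on only 3 and 3 UMIs in repeat 1, and 4 and 5 in repeat 2. The other combinations had no common direction, in part because a repeat had no UMI to compare, as for Ninj2 in the oxytocin/AVP sub-cluster (0 UMIs in all 4 libraries). Among the 12, each of the 6 genes had its highest mean in the sub-cluster named MCH Neurons, where Ptn stood at 426 and 656 CPM in repeat 1, and at 777 and 907 in repeat 2, against 165 and 220, and then 193 and 204, in GABA neurons. The median depth of the MCH sub-cluster, 1481 to 3840 UMIs, was below that of all Neurons_1 in 3 of 4 libraries. Of its nuclei, 58.6 to 85.6% per library carried 2 or more marker genes of another class, against 33.2 to 47.5% of GABA neurons. Mitochondrial genes made up 1.27 to 2.36% of its UMIs, against 0.763 to 1.17% in all Neurons_1. Whether its neurons or other nuclei carried the 6 genes was not tested.

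In the small non-neuronal cluster (34 to 80 nuclei per library), with CPM scaled by the total, Ninj2 was lower in TRα1+m with 180 and 99.2 CPM in repeat 1, and 177 and 123 in repeat 2. Nkx6-2 was lower as well, with 81.7 and 12.4 CPM in repeat 1, and 54.5 and 44 in repeat 2. Mfge8 was higher within each repeat, at 103 and 169 CPM and then at 211 and 334. Fabp7 was at 49 and 136 CPM in repeat 1, and at 27.2 and 26.4 in repeat 2, the latter from 4 and 3 UMIs. Chchd10 (250.5 and 182 CPM, then 129 and 132) showed no common direction. The sub-cluster named VLMC was not compared because a wild-type library held no nuclei of it, and Neurons_2 because 852 of its nuclei came from a single library.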

How the data were processed

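Single-nucleus 10x libraries were prepared from pooled hypothalamus nuclei. The deposited values are UMI counts per gene and barcode, which the authors made with Cell Ranger 5.0.1 on mm10, intronic reads included, without normalization; they removed shallow, mitochondria-rich and doublet-scored nuclei, clustered the rest in Seurat and deposited the cell annotation used here (56386 nuclei of 68190 barcodes). No further doublet removal was done. The 6 genes, the gene lists and the tests were chosen with earlier results of these data known. Members were named as listed, companions by list, and the 3 genes most like each member by Pearson r (mean of 20 CPM or more).

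UMIs were summed per library and cell group. Genes passing filterByExpr were fitted in edgeR 4.0.16 (R 4.3.3) by quasi-likelihood with TMM factors and Benjamini-Hochberg adjustment at 0.05, on genotype for companions, and on genotype and repeat for the test between repeats. The p-values rest on the spread between pooled libraries, which the fit moderates with that of other genes. With genotype and repeat both in the model, few residual degrees of freedom are left per gene. The smallest p-values there rest mostly on spread borrowed over genes. Repeats pair the libraries, since each repeat supplied one of each genotype: gene-wise differences between repeats correlated between genotypes (r 0.393 to 0.667 over the 6 groups). Python 3.11.15 was used for sums, thinning to 900 UMIs per nucleus (all kept nuclei reach it) and exact binomial intervals. Alternatives were DESeq2 1.42.0, other scalings, no filter, a prior count of 0.5, leaving out each library, and dropping nuclei with 2 or more markers of another class. That last step dropped 31.7 to 79.4% of the nuclei of a group in a library. A gene of the marker lists is not reported here and entered no marker sum or filter on nuclei. Only the edgeR fit on genotype alone was tested on simulated data, which held no difference between repeats. The fits with the repeat in the model and the DESeq2 fits were not tested in this way.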

Additional observations from a re-analysis of the deposited data

Results flagged for a closer look

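Edil3, the integrin-binding relative of Mfge8, differed in direction between the cell groups in which both repeats had the same direction. In tanycytes the repeats disagreed (-0.23 and 0.76). Its mean log2 difference, TRα1+m minus wild type, was 0.31 in microglia/macrophages (0.12 and 0.50 in the repeats). It was -0.12 in oligodendrocytes (-0.23 and -0.02), -0.19 in OPCs (-0.26 and -0.13), -0.49 in astrocytes (-0.24 and -0.74) and -0.15 in Neurons_1 (-0.08 and -0.23). By level Edil3 was at 2905 to 3396 CPM in oligodendrocytes, 176 to 268 in microglia/macrophages and 44.4 to 77.2 in astrocytes. The part of oligodendrocyte RNA in the lower groups was not tested. Ninj1, the relative of Ninj2, was higher in tanycytes (0.39, repeats 0.71 and 0.07) and lower in Neurons_1 (-0.25, repeats -0.04 and -0.46). The difference between cell groups was not tested for either gene.

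Barcodes outside the annotation, used in no comparison, carried Fabp7 at 118 CPM on average in TRα1+m libraries (156 and 78.9), against 69.7 and 44.1 in wild type. Mfge8 stood there at 96.7 CPM on average in TRα1+m (90.9 and 102), against 48.9 and 55.7. Outliers within a group were not examined, as each genotype has 2 libraries.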

How the results depend on the processing

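Over the 6 cell groups edgeR called 13 genes between genotypes, DESeq2 79, edgeR without a filter 180, edgeR with the repeat as a block 939 and DESeq2 with that block 178 (added after seeing the data). Leaving out single libraries gave 1 to 275. Of the companion combinations 0 were called, 8 with the repeat as a block, and 0 to 1 without single libraries: St18 in microglia/macrophages (called at -1.42 without the TRα1+m library of repeat 1, adjusted p 0.0389 in edgeR, and 0.45 without that of repeat 2). Tcf7l2 in OPCs ranged from -0.0313 to 1.23 without single libraries, and was -0.0012 without the wild type of repeat 2. Between repeats 15 member combinations passed, 8 in DESeq2 and 2 without genotype in the model. Without nuclei of mixed markers, Ptn in microglia/macrophages turned to -0.28 between repeats. Among members, 27 combinations did not overlap (23 without nuclei of mixed markers) and 35 had 1 direction (33 to 36 over the alternatives). The mean difference kept its sign in 34 of 34 with the block and in 34 to 36 of 36 without single libraries, the exceptions being Ptn in OPCs and tanycytes and Mfge8 in Neurons_1. It moved by more than the SD over repeats in 20 of 36 without either TRα1+m library, in 10 without either wild-type library and in 9 without nuclei of mixed markers. A mean with a library left out is not paired by repeat, so it also holds the difference between repeats. The repeat comparison was not run without single libraries, as 3 libraries leave no residual degrees of freedom. The causes were not tested. Tanycytes and microglia/macrophages, with the fewest UMIs, limit Ninj2 and Nkx6-2 most.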

Other observations

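In barcodes outside the annotation the other 4 genes stood at these levels, scaled by total UMIs. Ninj2 was at 39.1 CPM in wild type and 14.8 in TRα1+m in repeat 1, and at 48.4 and 16.3 in repeat 2. Nkx6-2 was at 28.4 and 12.1 CPM in repeat 1, and at 32.3 and 17.7 in repeat 2. Chchd10 was at 286 and 201 CPM in repeat 1, and at 246 and 155 in repeat 2. Ptn was at 488 and 604 CPM in repeat 1, and at 715 and 861 in repeat 2.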
